A study of Mus musculus with 7 samples.

Results

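The genes described here encode enzymes that break down amino acids, run the methionine cycle and, for 4 of them, make asparagine and serine. The members were taken from a list of 45 gene symbols, and where several probe sets match a gene, the one with the highest average level was used. Of these 45 genes, 41 were measured, among 18193 genes in all. Mat2a, Sds, Gls2 and Amt were not analysed here.

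The liver is the main site at which the body breaks down most amino acids. In the course of each pathway the amino group is removed or transferred, and the carbon skeleton enters the citric acid cycle, glucose synthesis or ketone synthesis. In the methionine cycle, methionine becomes S-adenosylmethionine, the methyl donor of the cell, and the homocysteine left over is either methylated again or passed by transsulfuration to cysteine and taurine. Many of these enzymes are abundant in adult hepatocytes and low in most other cells, whereas branched-chain amino acids are transaminated mostly outside the liver.

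Expression was measured on 7 Affymetrix mouse arrays, as log2 levels normalized by the authors with Robust Multiarray Analysis (RMA). The induced hepatic stem cells (iHepSCs, 2 arrays) were C57BL/6 mouse embryonic fibroblasts infected with lentivirus for Oct4 and Hnf4α under the SFFV promoter, picked as colonies and grown on collagen in HEP medium (William's E medium with serum, N2 supplement, nicotinamide, dexamethasone, HGF and EGF). Replicate 1 was at passage 3 (P3) and replicate 2 at passage 20 (P20). The clone is not named for these arrays. The study states that its further detailed work used 1 of its clones, so that both arrays may come from that clone. Primary hepatocytes (pHep, 1 array) were isolated by collagenase perfusion from livers of 6-week-old C57BL/6J mice, male per the study's methods. They were kept in culture for a few hours, per the labels in HEP medium. The study's methods instead name William's E medium with L-glutamine and antibiotics. Mouse embryonic fibroblasts (MEF, 4 arrays) came, per the study's methods, from C57BL/6J embryos of unstated sex, and so differed from pHep in age. They carried no transgene and were grown in DMEM with serum, L-glutamine, 2-mercaptoethanol and non-essential amino acids. MEF thus differed from the others in medium too, amino acids included, and iHepSCs and pHep may have differed in medium as well. Medium and cell type cannot be told apart. Nothing states that replicates came from separate cultures, and a p-value here weighs a difference only against the spread among these arrays, part of which may be technical.

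MEF replicate 1 stood apart. Over all probe sets, MEF replicates 2 to 4 correlated at 0.997 among themselves and at 0.960 to 0.961 with replicate 1. The summed level of 5 markers of dividing cells was 11.33 at P20 and 12.24 at P3 in iHepSCs, 10.49 in pHep, 10.73 on MEF replicate 1 and 13.54 to 13.67 on the other MEF arrays (log2 of the sum). The 9 hepatocyte markers measured summed to 16.58 and 16.46 in iHepSCs, 17.48 in pHep and 9.52 to 9.65 in MEF. Serpina1b, Cps1 and Cyp2e1 were under 6 on both iHepSC arrays, and Cyp2e1 was under 6 on the pHep array too. The pHep array also carried macrophage and Kupffer cell markers, of which 6 of 9 were higher than in MEF (66.7%, against 14.8% of all genes). Their summed level was 9.52 and 9.55 in iHepSCs, 13.36 in pHep and 10.26 to 11.23 in MEF, and none of the 9 was under 6 on the pHep array. Of 5 bile duct markers, 3 were higher and 1 lower in iHepSCs than in MEF, and 2 were higher and 1 lower in pHep. They summed to 14.84 and 15.03 in iHepSCs, 12.35 in pHep and 9.69 to 10.59 in MEF, with Krt19 and Krt7 above MEF by 5.16 and 6.15 in iHepSCs and Cftr under 6 on the iHepSC and pHep arrays. Of 10 fibroblast markers, 10 were below MEF in iHepSCs (limma, 100%, against 13.4% of all genes) and 8 in pHep (80.0%, against 15.5%). They summed to 14.61 and 14.62 in iHepSCs, 15.35 in pHep and 16.36 to 17.11 in MEF, and Thy1 and Lum were under 6 on the iHepSC and pHep arrays. Col3a1, a collagen gene of fibroblasts, stood at 4.92 and 5.20 in iHepSCs, 10.87 in pHep and 13.03 to 14.31 in MEF. Vim stayed high, at 13.97 and 14.20 in iHepSCs, 13.19 in pHep and 14.56 to 14.64 in MEF. Fn1 was at 12.96 and 12.31 in iHepSCs, 14.74 in pHep and 13.76 to 14.62 in MEF. Dcn was at 9.33 and 9.74 in iHepSCs, 9.53 in pHep and 10.27 to 10.88 in MEF. The part of any of these cells in the results below was not tested.

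Most of these genes were higher on the pHep array than in MEF, and fewer were higher in iHepSCs. A gene was called at an adjusted p under 0.05 in limma, a linear model of all arrays with Benjamini-Hochberg adjustment over all genes. Of the 41 genes, 27 were higher in pHep than in MEF (65.9%, against 14.8% of all genes) and 4 were lower (9.76%, against 15.5%). The median difference was 1.47 on the log2 scale, against -0.13 over all genes. In iHepSCs, 9 genes were higher than in MEF (22.0%, against 18.2% of all genes) and 8 were lower (19.5%, against 13.4%). These shares were near those of all genes. The median difference was -0.03, against 0.01 over all genes. With a floor of 1 on the log2 difference, 9 stayed higher (22.0%, against 10.8% of all genes) and 4 lower (9.76%, against 7.52%). Between iHepSCs and pHep, 2 genes were higher in iHepSCs (4.88%, against 9.26% of all genes) and 18 were lower (43.9%, against 7.89%), with a median of -0.84 against 0.15. RNA came from whole cultures, so that fewer cells of a type and less RNA per cell cannot be told apart.

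**Figure D1:**
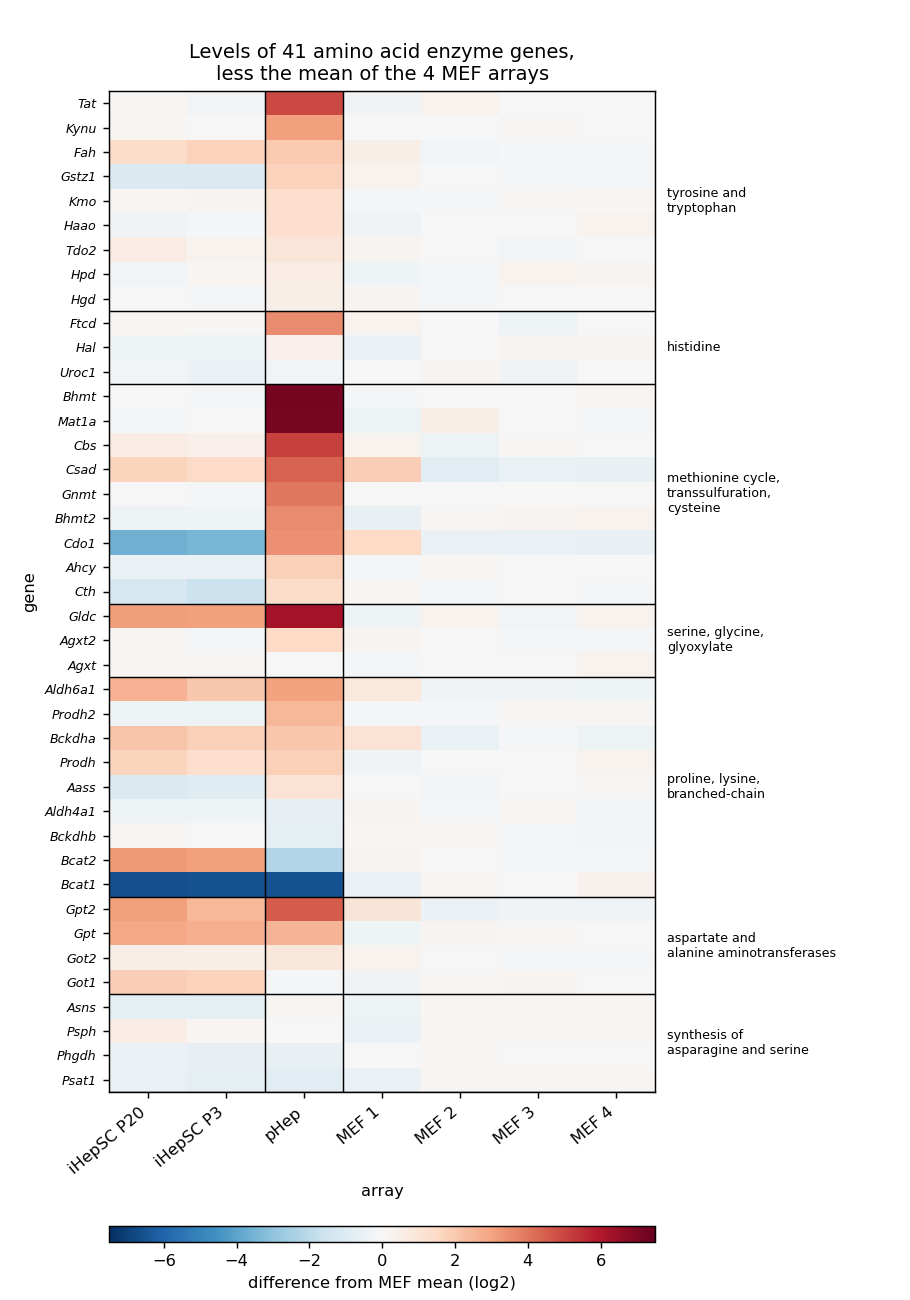
Log2 level of each of the 41 genes on each array, less the mean of the 4 MEF arrays. Columns are the iHepSC arrays at P20 and P3, the pHep array and MEF replicates 1 to 4, rows are genes grouped by pathway, and red and blue mark levels above and below the MEF mean. The pHep column is red for most genes of the methionine cycle, where the iHepSC columns are pale or blue.

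Without MEF replicate 1, 13 genes were higher and 13 lower in iHepSCs than in MEF (31.7% and 31.7%, against 31.0% and 24.8% of all genes). On the probe sets used, Cbs, Csad, Got2 and Tdo2 joined the higher and Bhmt2, Haao, Hal, Prodh2 and Psat1 the lower genes. The iHepSC and MEF levels of Tdo2, Bhmt2, Hal and Prodh2 all lay below the median of all probe sets on an array (6.28 to 6.33). Their added calls thus say little about expression. In pHep 28 were then higher than in MEF, with Hgd, and 6 lower, with Aldh4a1 and Psat1 (27.0% and 31.6% of all genes). Against pHep, 3 were then higher in iHepSCs, with Bckdhb, and 27 lower, with Aldh6a1, Asns, Csad, Gpt2, Got2, Hal, Hgd, Hpd and Tdo2 (25.4% and 17.3% of all genes). With each array centred on Gapdh, the calls of Gstz1, Aass, Ahcy, Asns and Phgdh as lower in iHepSCs than in MEF were lost. The comparisons with MEF share the MEF arrays, and the values of each are given side by side. The counts of joint calls are therefore a description. Against MEF, 7 genes (17.1%, against 8.68% of all genes) were higher in both iHepSCs and pHep: Fah, Prodh, Bckdha, Gpt, Gpt2, Aldh6a1 and Gldc. Another 5 (12.2%, against 0.748%) were lower in iHepSCs and higher in pHep: Gstz1, Cth, Ahcy, Aass and Cdo1. A further 15 (36.6%, against 5.39%) were higher in pHep and did not pass the test in iHepSCs, and 12 of these (29.3%, against 3.33%) were lower in iHepSCs than in pHep. Both iHepSC arrays stood above all MEF arrays for 13 genes (26.9% of all genes) and below them for 10 (23.7%).

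**Figure D2:**
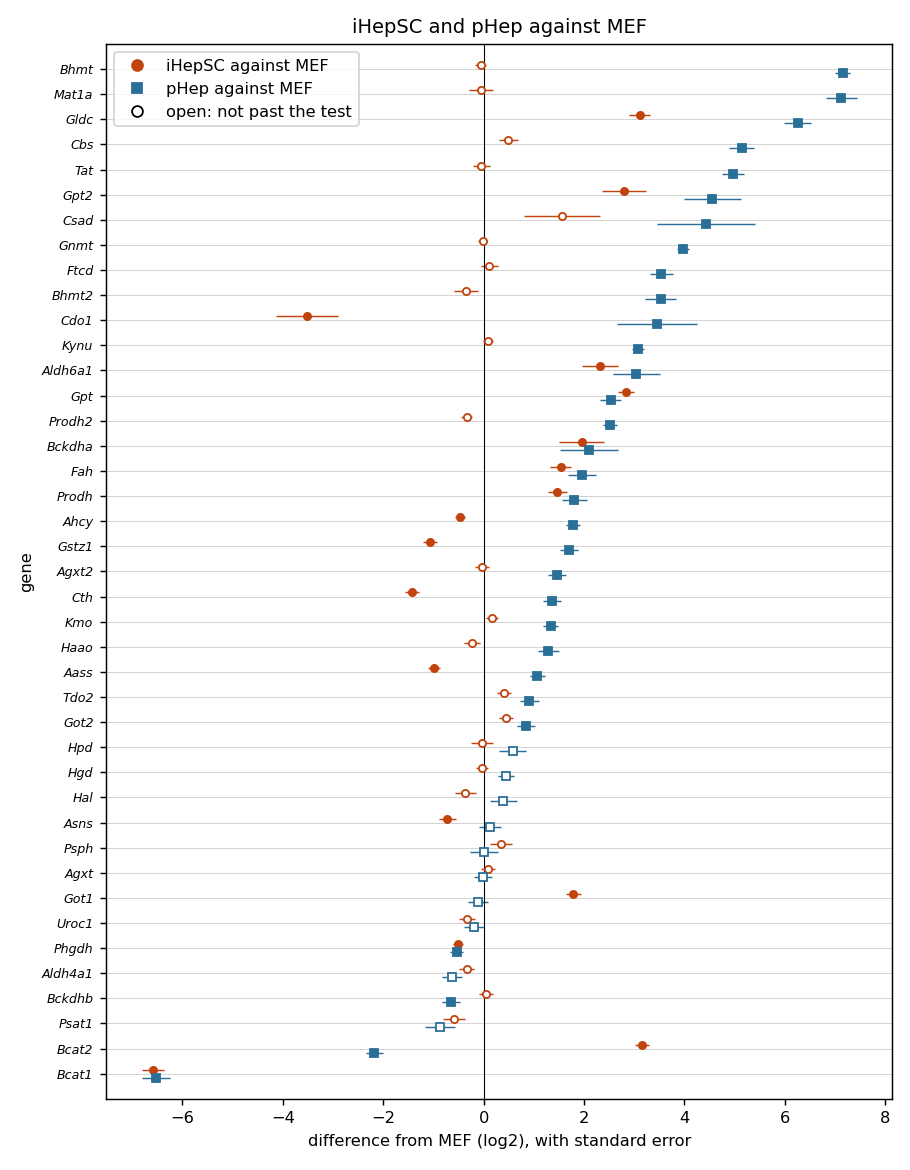
Log2 difference from MEF of each gene in iHepSCs (circles) and on the pHep array (squares), with the standard error of the fit, ordered by the pHep difference. Filled symbols passed the test. The largest pHep differences, 7.15 for Bhmt and 7.12 for Mat1a, lie beside iHepSC differences of -0.06 and -0.06.

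The methionine cycle and the path to cysteine and taurine were high in pHep, and no gene of this group was called higher in iHepSCs. All 9 genes measured were higher in pHep than in MEF (100%, against 14.8% of all genes), with a median difference of 3.97 and a range of 1.36 to 7.15. Compared with MEF, 3 were lower in iHepSCs (Cth, Ahcy and Cdo1, 33.3%, against 13.4% of all genes), with a median of -0.06. Against 18.2% of all genes, 0 were higher (limma, with 1, Cbs, at an unadjusted p under 0.05 and 0 by the methods' t-test). Against pHep, 8 of the 9 were lower in iHepSCs (88.9%, against 7.89% of all genes), with a median of -3.98. Bhmt, which methylates homocysteine with betaine, stood at 5.55 (P20) and 5.53 (P3) in iHepSCs, 12.75 in pHep and 5.44, 5.57, 5.64 and 5.74 in MEF. The iHepSC levels lay within the range of MEF, and the pHep level differed from MEF by 7.15 (SE 0.15, adjusted p = 4.36e-06) on the log2 scale, where SE is the standard error of the difference in the model. MEF levels are given in the order of replicates 1 to 4. The related Bhmt2, which uses S-methylmethionine, stood at 4.06 (P20) and 4.15 (P3) in iHepSCs, 7.98 in pHep and 3.92, 4.51, 4.66 and 4.71 in MEF. Its difference from MEF was 3.52 (SE 0.31, adjusted p = 0.000501) in pHep and -0.35 (SE 0.24, adjusted p = 0.334) in iHepSCs. Without MEF replicate 1 the iHepSC difference passed the test (-0.53, adjusted p = 0.00225). Mat1a, the liver enzyme that makes S-adenosylmethionine, stood at 4.28 (P20) and 4.36 (P3) in iHepSCs, 11.50 in pHep and 3.99, 4.88, 4.39 and 4.26 in MEF. Again iHepSCs and MEF overlapped, and the iHepSC mean was lower than pHep by a log2 difference of -7.18 (SE 0.34, adjusted p = 5.28e-05). The log2 difference of iHepSCs from pHep was -7.21 (SE 0.16, adjusted p = 4.95e-06) for Bhmt.

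Gnmt, which uses S-adenosylmethionine to methylate glycine, was at 6.09 and 5.98 in iHepSCs, 10.02 in pHep and 6.01 to 6.08 in MEF. Ahcy, which splits S-adenosylhomocysteine into adenosine and homocysteine, was measured at 11.83 (P20) and 11.82 (P3) in iHepSCs, 14.07 in pHep and 12.16, 12.43, 12.30 and 12.29 in MEF. All iHepSC levels lay below all MEF levels, by -0.47 (SE 0.11, adjusted p = 0.0185), a call that was lost without MEF replicate 3 (adjusted p = 0.0547), without MEF replicate 4 (adjusted p = 0.052) or without either iHepSC array. Cbs, which joins homocysteine and serine to cystathionine, stood at 6.56 (P20) and 6.39 (P3) in iHepSCs, 11.12 in pHep and 6.26, 5.61, 6.08 and 5.97 in MEF. It was above MEF by 5.14 (SE 0.25, adjusted p = 4.14e-05) in pHep and differed by 0.49 (SE 0.19, adjusted p = 0.102) in iHepSCs. Without MEF replicate 1 the iHepSC difference passed the test (0.59, adjusted p = 0.013). The other Cbs probe set stood at 5.90 (P20) and 6.25 (P3) in iHepSCs and 6.23 to 6.62 in MEF, a difference of -0.39. The sign in iHepSCs thus depends on the probe set. On the probe set used, all MEF levels lay below the median of all probe sets on an array (6.28 to 6.33).

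The genes that handle cysteine went different ways. Cth, which releases cysteine from cystathionine, stood at 9.02 (P20) and 8.68 (P3) in iHepSCs, 11.64 in pHep and 10.43, 10.20, 10.26 and 10.22 in MEF. It was lower in iHepSCs than in MEF by a difference of -1.43 (SE 0.13, adjusted p = 0.000494) and higher in pHep by 1.36 (SE 0.17, adjusted p = 0.00233). Cdo1, which oxidises cysteine to cysteine sulfinate, stood at 5.30 (P20) and 5.44 (P3) in iHepSCs, 12.35 in pHep and 10.40, 8.41, 8.41 and 8.37 in MEF. Both iHepSC levels lay below all MEF levels, MEF replicate 1 stood above the other MEF arrays, and pHep stood above all arrays. The iHepSC difference from MEF was -3.52 (SE 0.61, adjusted p = 0.00664) and from pHep -6.98 (SE 0.87, adjusted p = 0.00304). The call against MEF was lost without the P3 array (adjusted p = 0.0558) and without the P20 array (adjusted p = 0.0653). In pHep the Cdo1 difference from MEF was 3.45 (SE 0.79, adjusted p = 0.0217), lost without any 1 of MEF replicates 2, 3 and 4 or of the iHepSC arrays (adjusted p = 0.0535 to 0.0551). Csad, which decarboxylates cysteine sulfinate on the way to taurine, stood at 9.82 (P20) and 9.60 (P3) in iHepSCs, 12.59 in pHep and 10.00, 7.35, 7.66 and 7.62 in MEF. MEF replicate 1 overlapped the iHepSC levels and replicates 2 to 4 did not. The iHepSC difference was 1.55 (SE 0.76, adjusted p = 0.181) with all arrays and 2.17 (adjusted p = 8.01e-06) without MEF replicate 1. In pHep the Csad difference from MEF was 4.44 (SE 0.98, adjusted p = 0.0185), a call lost without MEF replicate 3 (adjusted p = 0.0506).

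**Figure D3:**
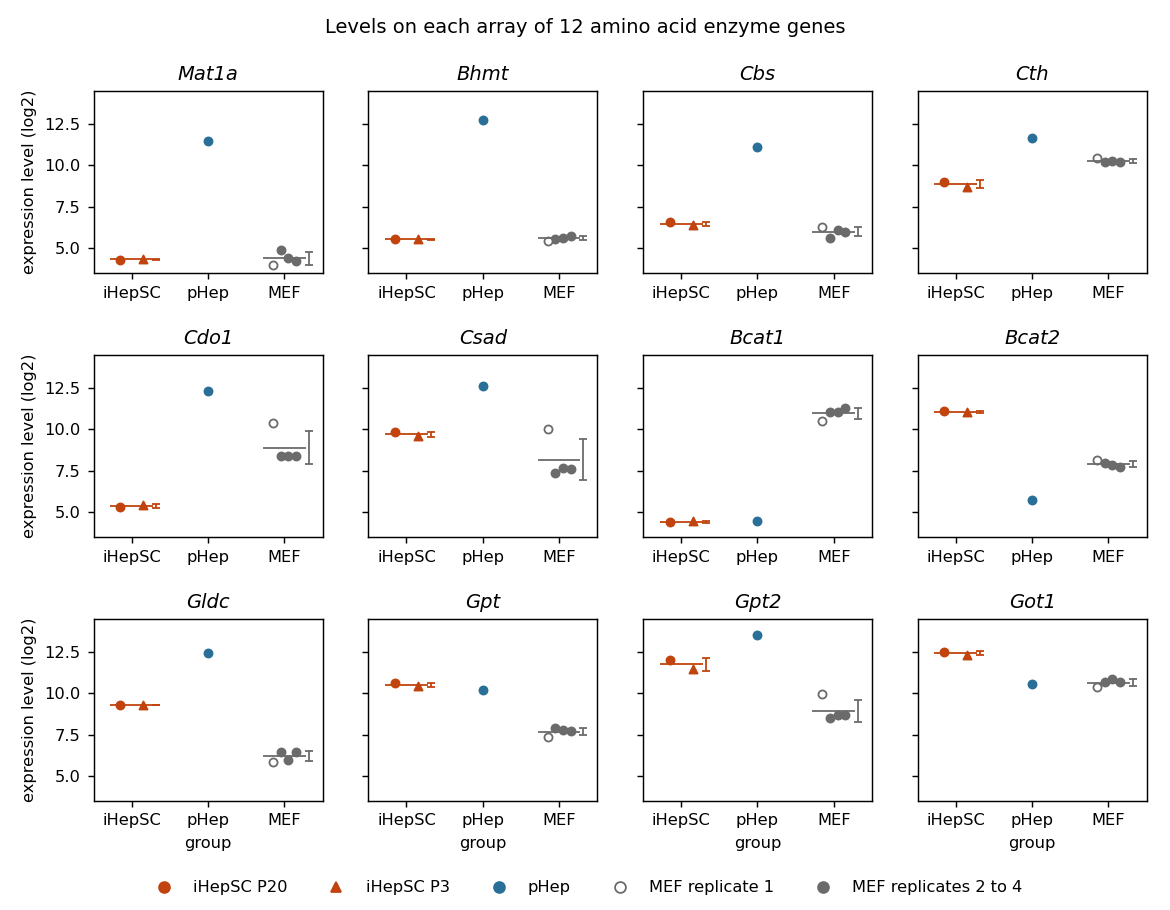
Log2 level on each array of 12 genes in iHepSCs (circle P20, triangle P3), pHep and MEF (open circle replicate 1). Lines give the mean and bars the SD (n = 2 for iHepSCs, n = 4 for MEF, none for the single pHep array). Mat1a, Bhmt and Cbs are high in pHep alone, Bcat1 is high in MEF alone, and Bcat2 is highest in iHepSCs.

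Of the 9 genes that break down tyrosine and tryptophan, 7 were higher in pHep than in MEF (77.8%, against 14.8% of all genes). In iHepSCs, 1 was higher (11.1%, against 18.2%) and 1 lower (11.1%, against 13.4%), shares below those of all genes. Against pHep, 5 were lower in iHepSCs (55.6%, against 7.89% of all genes). Tat, the aminotransferase that starts tyrosine breakdown, stood at 6.43 (P20) and 6.16 (P3) in iHepSCs, 11.30 in pHep and 6.06, 6.60, 6.39 and 6.30 in MEF. The iHepSC levels lay within the MEF range, with a difference of -0.04 (SE 0.17, adjusted p = 0.875), while pHep was above MEF by 4.96 (SE 0.22, adjusted p = 3.31e-05). The iHepSC level of Tat was below pHep by a log2 difference of -5.01 (SE 0.24, adjusted p = 6.02e-05). The last steps of tyrosine breakdown went apart from each other. Gstz1, the maleylacetoacetate isomerase, stood at 7.44 (P20) and 7.46 (P3) in iHepSCs, 10.22 in pHep and 8.76, 8.47, 8.46 and 8.38 in MEF. It was lower in iHepSCs than in MEF, by -1.07 (SE 0.13, adjusted p = 0.00161), and lower than in pHep too. Fah, which splits fumarylacetoacetate in the final step, stood at 11.06 (P20) and 11.40 (P3) in iHepSCs, 11.66 in pHep and 10.13, 9.48, 9.61 and 9.57 in MEF. The iHepSC levels were above all MEF levels, by 1.54 (SE 0.21, adjusted p = 0.00262), and differed from pHep by -0.43 (SE 0.30, adjusted p = 0.408). Hpd, the dioxygenase that makes homogentisate, was at 4.91 and 5.24 in iHepSCs, 5.68 in pHep and 4.76 to 5.39 in MEF. Hgd, which opens the ring of homogentisate, was at 6.08 and 6.00 in iHepSCs, 6.53 in pHep and 5.92 to 6.26 in MEF on the probe set used.

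In the kynurenine pathway of tryptophan, Kynu, which releases anthranilates from kynurenines, stood at 4.43 (P20) and 4.29 (P3) in iHepSCs, 7.35 in pHep and 4.26, 4.25, 4.38 and 4.23 in MEF. Only pHep stood apart, by 3.07 (SE 0.13, adjusted p = 2.64e-05) from MEF, and iHepSCs were below it by a difference of -2.99 (SE 0.14, adjusted p = 5.15e-05). Kmo, which hydroxylates kynurenine, was at 5.57 and 5.62 in iHepSCs, 6.76 in pHep and 5.30 to 5.57 in MEF, and Haao, the dioxygenase that opens the ring of hydroxyanthranilate, was at 5.97 and 6.09 in iHepSCs, 7.54 in pHep and 5.97 to 6.52 in MEF. Both were higher in pHep than in MEF (adjusted p = 0.00136 and 0.0062). Macrophages are known to express Kynu and Kmo as well, and macrophage markers were high on the same pHep array. Whether macrophages add to the pHep levels of Kynu and Kmo was not tested. Tdo2, the liver dioxygenase that starts tryptophan breakdown, was at 5.03 and 4.77 in iHepSCs, 5.40 in pHep and 4.28 to 4.67 in MEF on the probe set used.

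Of the 3 histidine genes, 1 was higher in pHep than in MEF on the probe sets used (33.3%, against 14.8% of all genes). In iHepSCs 0 passed the test (limma, also 0 at an unadjusted p under 0.05 and 0 by the methods' t-test). Of all genes, 18.2% were higher and 13.4% lower in iHepSCs. Ftcd, the last enzyme, which hands a one-carbon unit to folate, stood at 6.79 (P20) and 6.73 (P3) in iHepSCs, 10.18 in pHep and 6.94, 6.66, 6.32 and 6.66 in MEF. The pHep difference was 3.54 (SE 0.22, adjusted p = 0.000124), iHepSCs overlapped MEF, and they were below pHep by a difference of -3.42 (SE 0.25, adjusted p = 0.000304). Hal, the ammonia lyase that starts the pathway, was at 5.23 and 5.15 in iHepSCs, 5.94 in pHep and 5.09 to 5.78 in MEF. Uroc1, the next enzyme, was at 8.14 and 7.91 in iHepSCs, 8.17 in pHep and 8.11 to 8.56 in MEF on the probe set used. On its other probe set, Uroc1 was above MEF in pHep by 2.13.

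Of the 3 serine, glycine and glyoxylate genes measured, 1 was higher in iHepSCs than in MEF (33.3%, against 18.2% of all genes) and 2 in pHep (66.7%, against 14.8%). Gldc, the glycine decarboxylase of the glycine cleavage system, stood at 9.31 (P20) and 9.30 (P3) in iHepSCs, 12.46 in pHep and 5.87, 6.48, 5.99 and 6.46 in MEF. The groups did not overlap, with iHepSCs between pHep and MEF. Gldc was higher in iHepSCs than in MEF by 3.10 (SE 0.21, adjusted p = 0.000117), an 8.60-fold rise, and in pHep by 6.26 (SE 0.27, adjusted p = 2.88e-05). It remained below pHep by a log2 difference of -3.15 (SE 0.29, adjusted p = 0.000891). Agxt2, a mitochondrial aminotransferase that uses glyoxylate, stood at 4.24 (P20) and 4.00 (P3) in iHepSCs, 5.62 in pHep and 4.38, 4.13, 4.06 and 4.04 in MEF. It was higher in pHep by 1.47 (SE 0.18, adjusted p = 0.00195), and iHepSCs, at a difference of -0.03 (SE 0.14, adjusted p = 0.897) from MEF, were below pHep by -1.50 (SE 0.19, adjusted p = 0.0036). Agxt, the peroxisomal aminotransferase that clears glyoxylate in hepatocytes, stood at 5.46 (P20) and 5.48 (P3) in iHepSCs, 5.37 in pHep and 5.22, 5.34, 5.35 and 5.64 in MEF, with all groups overlapping. The differences of Agxt from MEF were 0.08 (SE 0.14, adjusted p = 0.7) in iHepSCs and -0.01 (SE 0.18, adjusted p = 0.967) in pHep.

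The 9 genes for proline, lysine and branched-chain amino acids held the largest rise and the largest fall of iHepSCs among the 41 genes. In iHepSCs, 4 were higher (44.4%, against 18.2% of all genes) and 2 lower (22.2%, against 13.4%) than in MEF. In pHep 5 were higher (55.6%, against 14.8%) and 3 lower (33.3%, against 15.5%). The branched-chain aminotransferases moved in opposite directions in iHepSCs. Bcat1, the cytosolic enzyme, stood at 4.37 (P20) and 4.43 (P3) in iHepSCs, 4.46 in pHep and 10.51, 11.07, 11.03 and 11.31 in MEF. Both iHepSCs and pHep lay far below MEF, by -6.58 (SE 0.22, adjusted p = 6.64e-06) and -6.52 (SE 0.28, adjusted p = 2.97e-05), and differed from each other by -0.06 (SE 0.31, adjusted p = 0.925). Bcat2, the mitochondrial enzyme, stood at 11.12 (P20) and 11.02 (P3) in iHepSCs, 5.74 in pHep and 8.14, 7.96, 7.82 and 7.75 in MEF. The difference of iHepSCs from MEF was 3.15 (SE 0.13, adjusted p = 1.73e-05), an 8.88-fold rise, and that of pHep was -2.18 (SE 0.17, adjusted p = 0.000342). Against pHep, Bcat2 was higher in iHepSCs by 5.33 (SE 0.19, adjusted p = 2.14e-05).

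The next enzyme, branched-chain keto acid dehydrogenase, is built with E1 subunits encoded by Bckdha and Bckdhb. Bckdha stood at 10.49 (P20) and 10.18 (P3) in iHepSCs, 10.49 in pHep and 9.44, 7.87, 8.23 and 8.00 in MEF. It was higher in iHepSCs by 1.96 (SE 0.45, adjusted p = 0.0196) and in pHep by 2.10 (SE 0.58, adjusted p = 0.0396), and both calls were lost without any 1 of MEF replicates 2, 3 and 4 or of the iHepSC arrays (adjusted p = 0.0518 to 0.146). Bckdhb stood at 10.23 (P20) and 10.19 (P3) in iHepSCs, 9.51 in pHep and 10.34, 10.28, 10.07 and 9.97 in MEF. Its difference was 0.05 (SE 0.13, adjusted p = 0.822) in iHepSCs, whose levels overlapped MEF, and -0.65 (SE 0.17, adjusted p = 0.0348) in pHep, a call lost without MEF replicate 2 (adjusted p = 0.0783), without MEF replicate 3 (adjusted p = 0.065) or without either iHepSC array (adjusted p = 0.0722). Aldh6a1, a dehydrogenase late in valine breakdown, stood at 11.49 (P20) and 10.94 (P3) in iHepSCs, 11.94 in pHep and 9.71, 8.64, 8.65 and 8.58 in MEF. The rise was 2.32 (SE 0.37, adjusted p = 0.00445) in iHepSCs and 3.04 (SE 0.47, adjusted p = 0.0052) in pHep. Without the P20 array the iHepSC call was lost (2.04, adjusted p = 0.0546).

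Prodh, which starts proline breakdown, stood at 8.18 (P20) and 7.73 (P3) in iHepSCs, 8.29 in pHep and 6.24, 6.45, 6.48 and 6.78 in MEF. The iHepSC levels were above all MEF levels, by 1.47 (SE 0.19, adjusted p = 0.00204), and the pHep difference was 1.81 (SE 0.25, adjusted p = 0.00318). Prodh2, which acts on hydroxyproline, stood at 5.47 (P20) and 5.44 (P3) in iHepSCs, 8.31 in pHep and 5.65, 5.72, 5.89 and 5.90 in MEF. It was higher in pHep only, by 2.51 (SE 0.14, adjusted p = 8.28e-05), and the iHepSC levels were below all MEF levels by -0.34 (SE 0.11, adjusted p = 0.0668), which passed the test without MEF replicate 1 (adjusted p = 0.00824). Against pHep, Prodh2 was lower in iHepSCs by a log2 difference of -2.85 (SE 0.16, adjusted p = 0.000103). Aass, the enzyme of the first steps of lysine breakdown, stood at 5.08 (P20) and 5.24 (P3) in iHepSCs, 7.22 in pHep and 6.20, 5.95, 6.19 and 6.24 in MEF. It was lower in iHepSCs than in MEF by -0.99 (SE 0.12, adjusted p = 0.00155) and higher in pHep by 1.07 (SE 0.16, adjusted p = 0.00402). Against pHep, Aass was lower in iHepSCs by -2.06 (SE 0.17, adjusted p = 0.00055). Its iHepSC and MEF levels all lay below the median of all probe sets on an array (6.28 to 6.33). The fall from MEF to iHepSCs thus says little about expression. Aldh4a1, which follows Prodh on the way to glutamate, was at 8.20 and 8.19 in iHepSCs, 7.91 in pHep and 8.32 to 8.71 in MEF.

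The aminotransferases of alanine and aspartate were higher than in MEF for 3 of 4 genes in iHepSCs (75.0%, against 18.2% of all genes). In pHep 3 of 4 were higher too (75.0%, against 14.8%), with Gpt counted in both on the probe set used. Gpt, the cytosolic alanine aminotransferase, stood at 10.60 (P20) and 10.42 (P3) in iHepSCs, 10.21 in pHep and 7.37, 7.88, 7.75 and 7.72 in MEF. It was higher by 2.83 (SE 0.16, adjusted p = 6.37e-05) in iHepSCs and by 2.53 (SE 0.21, adjusted p = 0.000409) in pHep, and its iHepSC levels differed from pHep by 0.30 (SE 0.23, adjusted p = 0.453). On the only other Gpt probe set, the differences from MEF were 0.47 (adjusted p = 0.0672) in iHepSCs and 0.12 (adjusted p = 0.69) in pHep, and neither passed the test. Gpt2, the mitochondrial enzyme, stood at 12.03 (P20) and 11.46 (P3) in iHepSCs, 13.51 in pHep and 9.94, 8.50, 8.71 and 8.66 in MEF. The iHepSC difference was 2.79 (SE 0.44, adjusted p = 0.00421) and the pHep difference 4.56 (SE 0.56, adjusted p = 0.0021), and the iHepSC call was lost without the P20 array (2.51, adjusted p = 0.0527). Got1, the cytosolic aspartate aminotransferase, stood at 12.51 (P20) and 12.34 (P3) in iHepSCs, 10.53 in pHep and 10.35, 10.70, 10.84 and 10.66 in MEF. It was higher in iHepSCs alone, by 1.79 (SE 0.16, adjusted p = 0.000367) over MEF and 1.89 (SE 0.22, adjusted p = 0.00226) over pHep. The difference of pHep from MEF was -0.11 (SE 0.20, adjusted p = 0.716). Got2, the mitochondrial enzyme, stood at 12.53 (P20) and 12.59 (P3) in iHepSCs, 12.97 in pHep and 12.39, 12.06, 12.04 and 11.98 in MEF. Its difference from MEF was 0.85 (SE 0.18, adjusted p = 0.0165) in pHep and 0.44 (SE 0.14, adjusted p = 0.058) in iHepSCs, which without MEF replicate 1 was 0.53 (adjusted p = 0.000823). The pHep call was lost with the mean of all Got2 probe sets (0.22, adjusted p = 0.29). Got2 stands on the list of hepatic genes that the study chose from these samples, so that its direction is no independent evidence.

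The 4 genes that make asparagine and serine had levels of at least 10.49 on every array. Compared with MEF, 2 were lower in iHepSCs and 1 in pHep, and 0 were higher in either (limma, also 0 at an unadjusted p under 0.05, and for iHepSCs 0 by the methods' t-test). Asns, the asparagine synthetase, stood at 11.73 (P20) and 11.66 (P3) in iHepSCs, 12.54 in pHep and 12.05, 12.54, 12.52 and 12.56 in MEF. The iHepSC levels were below all MEF levels, by -0.72 (SE 0.17, adjusted p = 0.0219), and the call was lost without any 1 of MEF replicates 2, 3 and 4 (adjusted p = 0.0614 to 0.0641) or of the iHepSC arrays (adjusted p = 0.115 and 0.137). Without MEF replicate 1, Asns was lower in iHepSCs than in pHep as well (-0.84, adjusted p = 0.000673). Phgdh, the first enzyme of serine synthesis, stood at 12.50 (P20) and 12.34 (P3) in iHepSCs, 12.40 in pHep and 12.92, 13.00, 12.94 and 12.88 in MEF. It was lower than in MEF by -0.51 (SE 0.10, adjusted p = 0.00912) in iHepSCs and by -0.54 (SE 0.12, adjusted p = 0.0221) in pHep. The call in iHepSCs was lost without the P3 array (adjusted p = 0.0784), and that in pHep without MEF replicate 2 (adjusted p = 0.0567) or 3 (adjusted p = 0.0578). Psat1, the next enzyme, was at 12.26 and 12.05 in iHepSCs, 11.87 in pHep and 12.23 to 12.92 in MEF, and without MEF replicate 1 it passed the test as lower in iHepSCs (-0.76, adjusted p = 0.000292) and in pHep (-1.04, adjusted p = 0.000215). Psph, the last enzyme, was at 11.46 and 11.09 in iHepSCs, 10.92 in pHep and 10.49 to 11.08 in MEF.

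The position of iHepSCs between MEF and pHep differed between genes. Of 16 genes at least 2 higher in pHep than in MEF on the log2 scale, iHepSCs covered 112% of the log2 distance for Gpt on the probe set used, whose calls were lost on the other, 93.0% for Bckdha, 76.2% for Aldh6a1, 61.2% for Gpt2, 49.6% for Gldc and 35.0% for Csad. For 9 of them the share lay between -13.4% and 9.62%, and for Cdo1, which was lower in iHepSCs than in MEF, it was -102%. These shares rest on 1 pHep array and on the probe sets used, and carry no test. On other probe sets, Tdo2 (4.42), Hgd (3.36) and Uroc1 (2.13) also stood at least 2 above MEF in pHep. The other Cbs probe set gave -0.39 in iHepSCs and 2.41 in pHep. The Bckdha calls were lost when most single MEF or iHepSC arrays were left out.

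The iHepSC arrays differed little between passages. At P20 the level was higher than at P3 for 29 genes and lower for 12, with a median difference of 0.08 against 0.00 over all genes. The median size of the difference was 0.14, against 0.12 over all genes, and 8 members (19.5%, against 14.1% of all genes) differed by at least 0.3. Gpt2 differed most, at 12.03 at P20 and 11.46 at P3, followed by Aldh6a1 at 11.49 and 10.94 and Prodh at 8.18 and 7.73. With 1 array for each passage there is no test.

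For 13 genes the array holds more than 1 probe set, and for 10 of these another probe set gave a difference at least 1 away in at least 1 comparison. Tdo2 had a level of 8.38 in pHep and 3.80 to 4.19 in MEF on another probe set, a difference of 4.42 in place of 0.91. Hgd had 8.87 in pHep and 5.19 to 5.70 in MEF on another probe set, a difference of 3.36 in place of 0.44. Uroc1 had 7.82 in pHep and 5.14 to 6.26 in MEF on its other probe set, a difference of 2.13 in place of -0.18. In iHepSCs these other probe sets gave differences from MEF of 0.26, -0.06 and 0.49. Another Got2 probe set stood at 9.68 and 9.80 in iHepSCs, 10.19 in pHep and 9.62, 10.63, 10.73 and 10.57 in MEF, differences of -0.65 and -0.20 from MEF. A further Gpt2 probe set gave 0.62 in iHepSCs and 1.74 in pHep, against 2.79 and 4.56. In pHep the other probe sets gave 0.46 for Kynu, 5.11 for Bhmt2 and 2.41 for Cbs, against 3.07, 3.52 and 5.14. In iHepSCs the other Cbs probe set gave -0.39, against 0.49. Bcat1 was below MEF on all 3 of its probe sets, by differences of -6.58, -4.10 and -0.79 in iHepSCs.

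**Figure D4:**
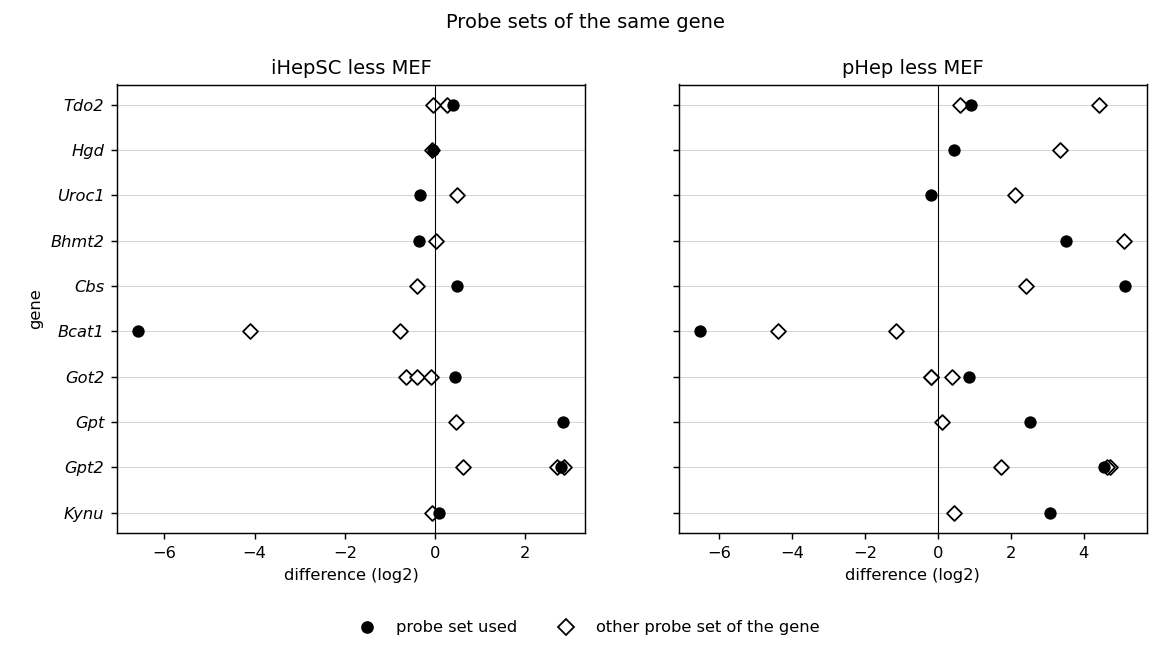
Log2 difference from MEF on each probe set of 10 genes, in iHepSCs (left) and on the pHep array (right), with filled circles for the probe set used and open diamonds for the others. Tdo2, Hgd and Uroc1 have a probe set with a pHep difference of 4.42, 3.36 and 2.13 beside one near 0 to 1.

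Levels of 5 genes stayed under 6 on all arrays, pHep included, on the probe sets used: Tdo2, Hpd, Hal, Agxt and Agxt2. The median of all probe sets on an array was 6.28 to 6.33, so that levels of this size say little about expression.

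The same pathways hold further genes, of which 61 were listed and 50 measured. In iHepSCs 21 (42.0%, against 18.2% of all genes) were above and 6 (12.0%, against 13.4%) below MEF. In pHep 23 (46.0%, against 14.8%) were higher and 3 (6.0%, against 15.5%) lower than in MEF. Between iHepSCs and pHep, 5 (10.0%, against 9.26%) were higher and 14 (28.0%, against 7.89%) lower in iHepSCs. Pcbd1, which recycles the cofactor of phenylalanine hydroxylase, stood at 12.29 (P20) and 12.30 (P3) in iHepSCs, 12.54 in pHep and 7.73, 7.16, 7.43 and 7.24 in MEF. It was higher in both, by 4.91 (SE 0.18, adjusted p = 8.61e-06) in iHepSCs and 5.15 (SE 0.23, adjusted p = 3.01e-05) in pHep. Aspa, which splits N-acetylaspartate, stood at 12.45 (P20) and 12.26 (P3) in iHepSCs, 6.23 in pHep and 6.10, 5.70, 6.03 and 6.12 in MEF, and was higher in iHepSCs by 6.37 (SE 0.15, adjusted p = 1.96e-06) over MEF and 6.13 (SE 0.22, adjusted p = 2.07e-05) over pHep. Aldh7a1, a dehydrogenase of lysine breakdown, stood at 7.72 (P20) and 7.79 (P3) in iHepSCs, 12.03 in pHep and 11.06, 10.43, 10.39 and 10.24 in MEF. It was lower in iHepSCs than in MEF, by -2.78 (SE 0.23, adjusted p = 0.000317). Dhtkd1, of the same pathway, was lower in iHepSCs by -1.80 (SE 0.32, adjusted p = 0.00675). Pipox, the oxidase of sarcosine and pipecolate, was at 5.99 and 5.82 in iHepSCs, 11.58 in pHep and 5.48 to 5.98 in MEF, and Hao1, the glycolate oxidase, at 4.48 and 4.64 in iHepSCs, 9.60 in pHep and 4.57 to 5.10 in MEF. Suox, the sulfite oxidase, was higher in iHepSCs than in pHep by 1.69 (SE 0.17, adjusted p = 0.00131). Oat and Gcsh were lower in pHep than in MEF, by -2.41 (SE 0.15, adjusted p = 0.00012) and -1.30 (SE 0.21, adjusted p = 0.00571).

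Of 12 other genes of the amino acid response, which ATF4 drives when amino acids run short, 1 was higher (8.33%, against 18.2% of all genes) and 1 lower (8.33%, against 13.4%) in iHepSCs than in MEF. In pHep 1 was higher (8.33%, against 14.8%) and 2 were lower (16.7%, against 15.5%), shares near or below those of all genes. Ddit4 was higher (2.11 (SE 0.50, adjusted p = 0.022)) and Trib3 lower (-1.02 (SE 0.16, adjusted p = 0.0048)). In pHep, Atf5 was higher than in MEF (2.30 (SE 0.67, adjusted p = 0.0466)) and Nupr1 and Slc7a5 were lower (-2.70 (SE 0.37, adjusted p = 0.00322) and -0.94 (SE 0.19, adjusted p = 0.0131)), and the last pair was higher in iHepSCs than in pHep, by 1.94 (SE 0.41, adjusted p = 0.0239) and 1.23 (SE 0.21, adjusted p = 0.00997).

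RefSeq promoter windows (build GRCm38.p6, 250 bases before to 50 after a start site) were at hand for 36 of the 41 genes. The binding sequence specific to HNF4A, the factor given to iHepSCs, was searched as CAAAGTCCA on both strands, and the ATF4 composite site as TGATGNAAN on both strands. No member's window held both. The HNF4A sequence lay in 0.475% of 32851 windows and, among these genes, in the window of Agxt2 alone. By gene, this is 1 of 36 (2.78%), against 0.588% of 14452 array genes with a window. The ATF4 sequence lay in 3.95% of windows and in those of Asns and Got1. By gene, this is 2 of 36 (5.56%), against 3.22% of the array genes. A match is a description of the letters, not of binding. The windows of Agxt2 (chr15:10358283-10358582, plus strand), Asns (chr6:7693160-7693459, minus strand) and Got1 (chr19:43524556-43524855, minus strand) are shown 5′ to 3′ with the match in capitals, as the only members with a match. Against MEF, Agxt2 did not pass the test in iHepSCs, Asns was lower and Got1 higher.
Agxt2: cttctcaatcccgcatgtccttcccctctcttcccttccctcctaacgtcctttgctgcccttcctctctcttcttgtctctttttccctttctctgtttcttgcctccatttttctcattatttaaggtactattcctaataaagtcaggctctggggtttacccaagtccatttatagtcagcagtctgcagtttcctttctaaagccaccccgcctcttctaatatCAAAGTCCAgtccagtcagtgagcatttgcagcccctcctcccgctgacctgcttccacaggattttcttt
Asns: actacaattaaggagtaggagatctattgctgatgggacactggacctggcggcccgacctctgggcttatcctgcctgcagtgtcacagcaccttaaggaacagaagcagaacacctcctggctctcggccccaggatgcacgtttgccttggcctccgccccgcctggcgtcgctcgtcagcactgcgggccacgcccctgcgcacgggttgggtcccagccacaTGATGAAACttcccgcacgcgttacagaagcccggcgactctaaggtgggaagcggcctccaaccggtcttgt
Got1: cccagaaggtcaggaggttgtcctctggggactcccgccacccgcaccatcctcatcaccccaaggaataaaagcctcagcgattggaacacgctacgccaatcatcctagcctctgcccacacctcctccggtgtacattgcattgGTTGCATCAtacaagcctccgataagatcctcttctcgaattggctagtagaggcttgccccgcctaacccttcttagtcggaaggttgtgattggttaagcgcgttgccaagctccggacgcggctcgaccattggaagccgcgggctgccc

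The number of CpG dinucleotides in the windows differed between the genes. The median was 10 over the 36 genes and 17 over 14452 genes of the array. It was 13.5 (8 to 19) for 6 of the 7 genes that were higher in both iHepSCs and pHep than in MEF, and 7 (3 to 26) for 13 of the 15 that were higher in pHep and did not pass the test in iHepSCs. The ranges overlapped, and Cbs, Got2 and Bhmt2 of the second set held 22, 24 and 26. For 3 of the 5 genes that were higher in pHep and lower in iHepSCs, the numbers were 5, 9 and 13. The windows of Gpt2 (chr8:85492326-85492625, plus strand) and Tat (chr8:109990186-109990485, plus strand), both of aminotransferases, are shown with each CpG in capitals. They hold 19 and 5 CpG and lie further apart than the set medians of 13.5 and 7. Gpt2 has, with Fah, the highest number of its set, and Tat lies under the median of its set. Gpt2 was higher in iHepSCs and pHep, and Tat in pHep alone.
Gpt2: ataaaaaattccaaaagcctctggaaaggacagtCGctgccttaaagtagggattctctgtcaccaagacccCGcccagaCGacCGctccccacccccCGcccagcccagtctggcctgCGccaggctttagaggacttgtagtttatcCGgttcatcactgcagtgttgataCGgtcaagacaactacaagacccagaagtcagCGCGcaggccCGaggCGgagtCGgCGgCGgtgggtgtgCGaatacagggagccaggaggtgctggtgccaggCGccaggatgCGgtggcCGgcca
Tat: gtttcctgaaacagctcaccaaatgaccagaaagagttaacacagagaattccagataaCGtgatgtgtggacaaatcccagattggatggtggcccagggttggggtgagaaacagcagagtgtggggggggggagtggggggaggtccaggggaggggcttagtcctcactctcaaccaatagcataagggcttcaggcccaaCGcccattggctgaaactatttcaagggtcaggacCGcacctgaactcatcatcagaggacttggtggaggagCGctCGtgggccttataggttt

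**Figure D5:**
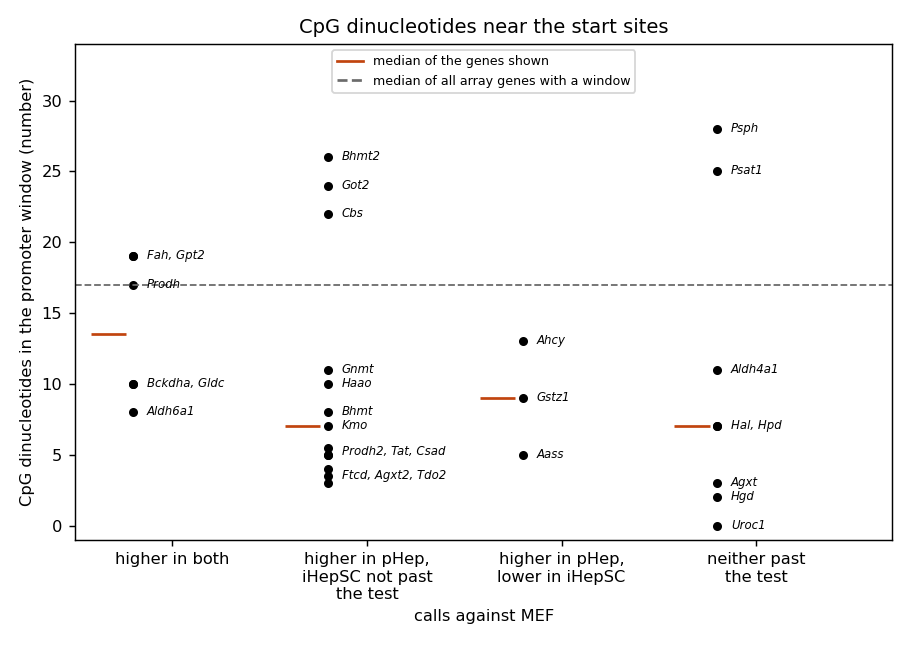
Number of CpG dinucleotides in the promoter window of the genes (mean over the windows of a gene) of 4 sets, by the calls of pHep and iHepSCs against MEF. Short red lines give the median of each set (13.5, 7, 9 and 7) and the dashed line the median of all array genes with a window (17).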

How the data were processed

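RNA was hybridised by the authors to Affymetrix mouse arrays, and log2 expression levels of 45101 probe sets were deposited after RMA (version not given in the sources used here). RMA corrects background and normalizes quantiles between arrays, which removes any global shift in RNA. All 7 columns matched a sample. Left out were 64 control probe sets, 932 that carry several symbols and 9160 without a symbol. Of the 34945 remaining, 34741 matched RefSeq by gene ID. Several probe sets matched 9010 genes, and the one with the highest average stands for each. No filter was applied. Precision is limited by how few arrays there are.

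Group differences were tested two-sided in R 4.3.3 with the moderated linear models of limma 3.58.1 (default prior of eBayes), fitted once to 7 arrays with 3 group means. The p-values were adjusted over all genes after Benjamini and Hochberg, and the threshold was 0.05. Of 4 residual degrees of freedom, none comes from the single pHep array, whose spread is taken to equal that of the other groups. The script was tested on simulated data. Nothing states that MEF and iHepSC arrays of the same replicate number are paired, and the main model does not pair them. Deviations of same-numbered arrays from their group means correlated at -0.22 and -0.21. The deviations of the 2 iHepSC arrays mirror each other and MEF replicate 1 stood apart, so these values cannot decide on pairing. Gene lists were described by counts and medians, with no set test. Members, lists and alternatives were chosen with earlier results of these data known.

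Every member is named with its level. Full statistics go to the 2 members that rose most and the 2 that fell most past the test in each pathway group and comparison and to paralogous members, other probe sets are given where they disagree, and up to 2 rises and 2 falls are named in other lists. Aldh6a1, Ahcy, Csad, Cbs and the genes of serine synthesis were given more values than this rule asks, after these were seen. CpG numbers and the shares of the distance to pHep were chosen after seeing the data.

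Alternatives were the mean of all probe sets, no _x_at or _s_at probe sets, a minimum level of 6 and repeated quantile normalization. Values were also centred on the array median or on the mean of 3 Gapdh control probe sets. The model was varied by trend and robust fitting, leaving out each MEF or iHepSC array, and the replicate number as a block. The single pHep array was always kept. Further alternatives were MEF replicates 2 to 4 as 1 sample, floors on the difference, and the unpaired t-test of the study's methods. Python 3.11.15 with numpy 2.4.6, pandas 2.3.3 and matplotlib 3.10.9 made the tables and figures.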

Additional observations from a re-analysis of the deposited data

Results flagged for a closer look

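On the 4 MEF arrays, 8 of the 41 genes (19.5%) had 1 array far from the other 3 by Dixon's test, which chance alone passes in about 1 of 20 groups, and 23.5% of all genes had one. For 7 of the 8 the array was MEF replicate 1. It stood above the others for Gpt2 (9.94, against 8.50 to 8.71), Aldh6a1 (9.71, against 8.58 to 8.65), Cdo1 (10.40, against 8.37 to 8.41) and Csad (10.00, against 7.35 to 7.66). It stood below them for Asns (12.05, against 12.52 to 12.56), Psat1 (12.23, against 12.90 to 12.92) and Psph (10.49, against 11.04 to 11.08). Aass stood low on MEF replicate 2 (5.95, against 6.19 to 6.24). Over all members, replicate 1 was at least 1 above the mean of replicates 2 to 4 for 5 genes and at least 1 below it for 0, against 8.26% and 3.73% of all genes.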

How the results depend on the processing

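Of the 17 genes called between iHepSCs and MEF, 5 were called under every alternative tried, as were 11 of the 31 between pHep and MEF and 10 of the 20 between iHepSCs and pHep. Centring on Gapdh, which moved the median of all genes by 0.49 for iHepSCs against MEF, 0.03 for pHep against MEF and 0.46 for iHepSCs against pHep, gave 14 higher (34.1%, against 25.0% of all genes, with Cbs, Kmo, Tdo2, Got2 and Psph) and 3 lower (7.32%, against 5.79%, without Gstz1, Aass, Ahcy, Asns and Phgdh) in iHepSCs than in MEF and 24 higher (58.5%, against 8.38%) and 2 lower (4.88%, against 7.59%) in pHep than in MEF, and turned Ahcy in iHepSCs to 0.022 (adjusted p = 0.931). The replicate block treats same-numbered arrays as paired, which nothing states. It left 5 higher (12.2%, against 4.64% of all genes) and 1 lower (2.44%, against 3.75%) in iHepSCs than in MEF. In pHep, 11 were higher (26.8%, against 2.56%) and 1 lower (2.44%, against 1.73%) than in MEF. Between iHepSCs and pHep, 1 was higher (2.44%, against 1.04%) and 9 were lower (22.0%, against 1.42%) in iHepSCs. With MEF replicates 2 to 4 as 1 sample, 5 were higher (12.2%, against 8.34%) and 5 lower (12.2%, against 6.51%) in iHepSCs and 2 lower (4.88%, against 5.1%) in pHep. Counts of lower genes ranged from 4 to 13 in iHepSCs (7.14% to 24.8% of all genes) and from 2 to 6 in pHep (10.1% to 31.6%) with 1 array left out, the highest in each case without MEF replicate 1. A floor of 1 on the log2 difference left 4 lower in iHepSCs (9.76%, against 7.52%) and 2 lower in pHep (4.88%, against 8.22%). With the same floor, 9 stayed higher in iHepSCs than in MEF (22.0%, against 10.8%). With the mean of all probe sets, Uroc1 was higher in pHep than in MEF (0.97, adjusted p = 0.0139). The methods' t-test gave 11 higher and 9 lower in iHepSCs than in MEF at its unadjusted threshold (21.0% and 16.4% of all genes), and 8 and 7 after Benjamini-Hochberg adjustment (14.0% and 10.6%). The causes were not tested.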
